A study of Mus musculus with 12 samples.

Results

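The genes described here are the nuclear-encoded subunits of mitochondrial oxidative phosphorylation, read in mouse liver RNA. They were the rows of the gene count table classed as protein coding whose symbol began with Nduf, Uqcr or Atp5, was Sdha, Sdhb, Sdhc, Sdhd, Cyc1 or Cycs, or began with Cox4, Cox5, Cox6, Cox7 or Cox8. That rule gave 98 of 55401 rows, on 19 chromosomes, and 92 of them passed the filter on low counts and were tested. By role the rows were 7 core subunits, 30 accessory subunits and 8 assembly factors of complex I, 4 subunits of complex II, 9 of complex III, cytochrome c itself, 21 of complex IV and 18 of complex V. The rule took up the assembly factors named Ndufaf, and Ndufa4 with its paralog Ndufa4l2 was counted with complex IV, where the protein sits. The study set mice with loxP-flanked Lpcat3 alleles and cre (genotype LPCAT3flox/flox-cre, called cre below) against mice with the same alleles and no cre (LPCAT3flox/flox, called flox), and a methionine- and choline-deficient (MCD) diet against a control diet. The 4 groups were cre MCD, flox MCD, cre control and flox control, with 3 livers each. All mice were C57BL/6, labelled male and 6 to 8 weeks old, the MCD diet lasted 8 weeks as a model of steatohepatitis, and food was withdrawn for 12 h before collection in every group. Lpcat3 encodes an acyltransferase that puts polyunsaturated chains into membrane phospholipids. The promoter behind cre and any shared litter or cage are not given in the sources used here, so the p-values measure the spread between these livers only.

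In the inner mitochondrial membrane, complex I takes electrons from NADH and complex II takes them from succinate, and both hand them through ubiquinone to complex III, from where cytochrome c carries them to complex IV and oxygen. Complexes I, III and IV pump protons, and complex V, the ATP synthase, lets them flow back to make ATP. Most subunits are made from nuclear genes and imported, a few are made inside the organelle from its own genome, and in hepatocytes the chain also takes up the electrons of fatty acid oxidation.

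The libraries held 40883986 to 65516723 estimated counts. A row of ribosomal RNA, CT010467.1, took 43.0% of the counts in flox control 1, 7.33% in flox control 3 and 5.6% in the library labelled cre MCD 3, against 11.5% to 19.2% in the other 9 libraries. The check of the labels with the floxed gene did not hold for 1 library: Lpcat3 stood at 56.1 CPM in the library labelled cre MCD 3, at 16.1 to 23.3 CPM in the other 5 cre libraries and at 41.4 to 63.4 CPM in the flox libraries (CPM, counts scaled to TMM-normalised library size, the unit of all levels below unless FPKM is named). All 12 libraries held Xist at 116 to 685 CPM and no Y-linked count, against the label male. The 8 hepatocyte markers summed to 85686, 88799 and 95578 CPM in cre MCD livers, 64921, 44716 and 62871 CPM in flox MCD livers, 65127, 80254 and 85911 CPM in cre control livers and 54134, 74651 and 102073 CPM in flox control livers. The 6 striated muscle markers summed to 0.388 to 1.36 CPM in MCD livers and 0.344 to 1.04 CPM in control livers. In whole liver, fewer cells of a type and less RNA per cell cannot be told apart. Within a group, values below stand in the order of replicates 1, 2 and 3, so the third value of cre MCD is the library labelled cre MCD 3.

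Per transcript length, the subunit genes of complexes III, IV and V were the most abundant and the assembly factors the least. As the median over the 12 livers of FPKM (fragments per kilobase, scaled to library size by the authors), the common members (leaving out isoforms of other tissues and a row at 0 that repeats the symbol Atp5o) had a median of 268 FPKM in complex III, 236 FPKM in complex IV and 232 FPKM in complex V. The accessory subunits of complex I had a median of 119 FPKM, its core subunits, which carry the redox centres, 74.6 FPKM, complex II 42.3 FPKM, and the 8 assembly factors, which build complex I and are not part of it, 9.53 FPKM. The highest member of all was Uqcrq of complex III (median 657 FPKM, range 356 to 819 FPKM), followed by Atp5e, the epsilon subunit of complex V, at 645 FPKM and Cox6c of complex IV at 613 FPKM. In complex I the range ran from Ndufa6 at 359 FPKM to the core subunit Ndufs1, which holds iron-sulfur clusters of the NADH arm, at 16.6 FPKM. Sdhb, the iron-sulfur subunit of complex II, stood at 129 FPKM and its membrane anchor Sdhc at 29.9 FPKM. The lowest common members of complexes III and V were Uqcrc2 at 54.1 FPKM and Atp5g2 at 45.7 FPKM, and cytochrome c, Cycs, was at 37.2 FPKM. Such levels compare genes within these libraries and were not tested.

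**Figure D1:**
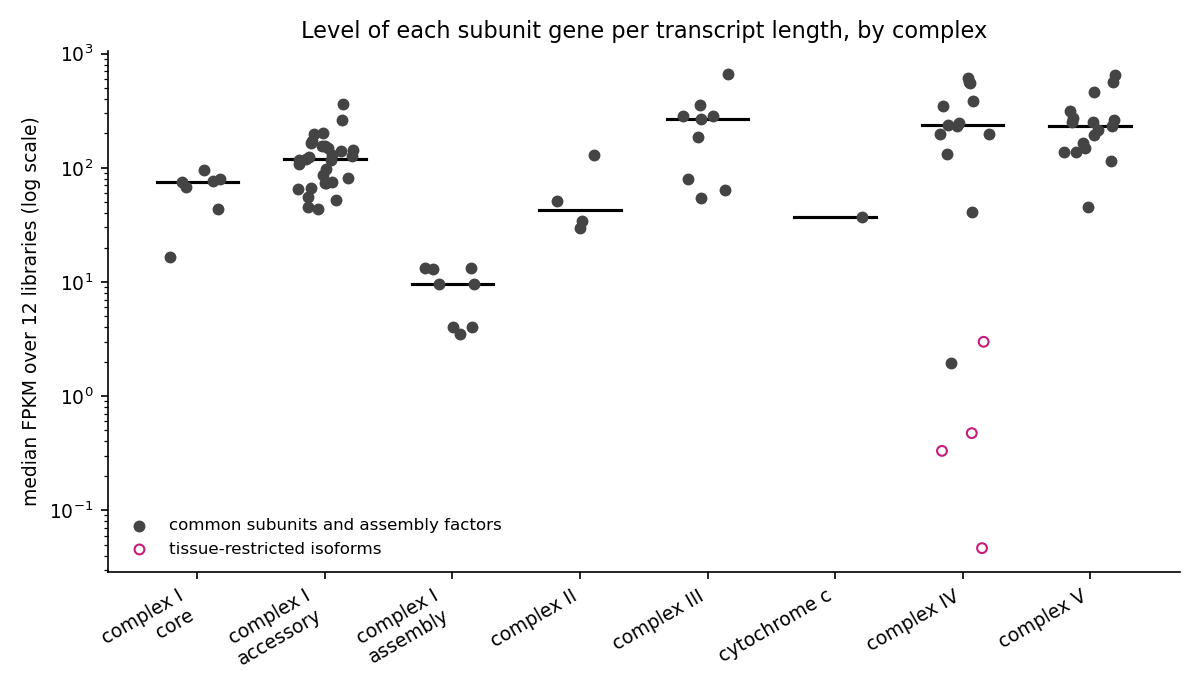
Median FPKM over the 12 libraries (log axis) of each member, by complex, with black bars at the median of the common members and open symbols for the tissue-restricted isoforms of complex IV; the 5 members with a median of 0 are left out. Complexes III, IV and V sit between 232 and 268 FPKM in the median, and the complex I assembly factors at 9.53 FPKM.

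Isoforms of complex IV known from muscle, lung or testis were low in these livers, and all but Cox7a1 had a median of at most 0.473 FPKM. Cox7a1, the heart and muscle form, had a median of 2.99 FPKM beside 196 FPKM for Cox7a2, the form common to most tissues. Ndufa4l2, known as a target of hypoxia signalling, had 0.473 FPKM beside 385 FPKM for Ndufa4, and the testis form Cox6b2 had 0.331 FPKM beside 232 FPKM for Cox6b1. The lung form Cox4i2 had 42 counts in all 12 libraries together, against 290201 for Cox4i1. The muscle forms Cox6a2 and Cox8b had 50 and 12 counts in all, and Cox7b2 and Cox8c had none. Cox4i2, Cox6a2, Cox7b2, Cox8b, Cox8c and a row that carries the symbol Atp5o beside the main one (ENSMUSG00000116933, 11 counts) were the 6 members not tested.

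Over both genotypes, the MCD diet was tested as the mean of the cre MCD and flox MCD groups against the mean of the cre control and flox control groups. In this pooled comparison 11 of the 92 tested members rose and 1 fell (edgeR quasi-likelihood test, Benjamini-Hochberg adjusted p under 0.05 over 16523 genes). Of all tested genes 14.9% were called in either direction, 8.03% as higher and 6.92% as lower, so the members' total of 13% was near the background while their split leaned to higher. The members that rose were the accessory subunits Ndufa8 and Ndufs4 and the assembly factor Ndufaf4 of complex I, Uqcr10 and Cyc1 of complex III, cytochrome c, Cox5a and Cox7a2 of complex IV, and Atp5b, Atp5g3 and Atp5mpl of complex V. The complex I accessory row Ndufb1-ps was the member that fell. None of the 4 subunits of complex II or the 7 core subunits of complex I passed, and in complex II the smallest p belonged to Sdhc (0.32, adjusted p = 0.337). The median log2 fold change of the members was 0.18, beside 0.00 for all tested genes, and 64 of 92 were positive. Cytosolic ribosomal proteins, outside the organelle, had a median of 0.26, with 75 of 89 positive. At an unadjusted p under 0.05 there were 34 members (37%, against 30.3% of all tested genes).

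Uqcr10, a small subunit of complex III, had 167, 156 and 234 CPM in cre MCD livers, 169, 195 and 152 CPM in flox MCD livers, 98.9, 96.7 and 96.8 CPM in cre control livers and 73.7, 119.7 and 141 CPM in flox control livers. Each of the 6 MCD libraries was above each of the 6 control libraries. The log2 fold change was 0.78 ± 0.17 (SE, adjusted p = 0.00849). Cycs, the somatic cytochrome c that shuttles electrons between complexes III and IV and activates caspases when released, had 149, 154 and 239 CPM in cre MCD livers, 148, 163 and 167 CPM in flox MCD livers, 97.9, 109 and 102 CPM in cre control livers and 74.6, 117 and 129 CPM in flox control livers. Its MCD and control libraries did not overlap either, and it rose by 0.69 ± 0.17 on the log2 scale (adjusted p = 0.014). Ndufa8, an accessory subunit on the intermembrane-space side of complex I, had 142, 137 and 149.7 CPM in cre MCD livers, 131, 114 and 112 CPM in flox MCD livers, 93.3, 86.5 and 95.7 CPM in cre control livers and 62.9, 85.2 and 96.7 CPM in flox control livers. Here too all MCD values lay above all control values, with a log2 fold change of 0.59 ± 0.13 (adjusted p = 0.00867). These were the 3 members whose 6 and 6 libraries stood apart (3.39% of all tested genes did so as higher), and no member stood apart as lower, against 2.96% of genes.

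Ndufaf4, an assembly factor needed early in the building of complex I, had 44.8, 48.6 and 37.1 CPM in cre MCD livers, 33.6, 40.6 and 28.7 CPM in flox MCD livers, 30.2, 29.0 and 23.9 CPM in cre control livers and 22.1, 26.8 and 22.6 CPM in flox control livers. The lowest MCD library, flox MCD 3, lay below the highest control library, cre control 1. It rose by 0.59 ± 0.13 (log2, adjusted p = 0.0109). Atp5mpl, a small proteolipid of the ATP synthase, had 123, 157 and 180.0 CPM in cre MCD livers, 134, 170.3 and 133 CPM in flox MCD livers, 80.1, 70.6 and 78.8 CPM in cre control livers and 63.4, 115 and 139 CPM in flox control livers. Its overlap came from flox control 3, and the log2 fold change was 0.73 ± 0.18 (adjusted p = 0.0172). Uqcr10, Cycs, Ndufa8, Ndufaf4 and Atp5mpl kept their calls when any 1 of the 12 libraries was left out, with adjusted p of at most 0.0459.

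Ndufb1-ps went the other way. It bears a pseudogene's symbol but is classed as protein coding, and Ndufb1 is an accessory subunit of complex I. It had 94.8, 71.6 and 87.8 CPM in cre MCD livers, 64.7, 58.3 and 69.1 CPM in flox MCD livers, 116, 126 and 104 CPM in cre control livers and 78.2, 108 and 106 CPM in flox control livers. The fall of 0.52 ± 0.13 on the log2 scale (log2 fold change -0.52, adjusted p = 0.0191) was lost without cre MCD 2 or flox MCD 2, over a range of -0.59 to -0.47 and adjusted p of up to 0.0614. On log2(FPKM + 1), where the median of all genes moved to 0.33, limma gave it -0.07 (adjusted p = 0.8), and it was not called. The row lies on the strand opposite Cpsf2, and with the strand setting of the counting not given, reads of the overlapping rows cannot be told apart. Of the members that rose in this comparison, Cox5a also overlaps a row on the opposite strand, a noncoding RNA with few counts, and over all members 35 overlap such a row.

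The other 6 members that rose rested on particular libraries. Cox7a2 (0.84 ± 0.22, adjusted p = 0.0232) lost its call without the library labelled cre MCD 3, cre control 1, cre control 2 or flox MCD 2. Cox5a (0.94 ± 0.26, adjusted p = 0.0258) lost it without these and without flox control 2. Ndufs4, an accessory subunit near the NADH arm of complex I (0.77 ± 0.23, adjusted p = 0.0394), kept its call only without cre MCD 1, flox control 1 or flox control 3. Atp5b, the catalytic beta subunit of complex V (0.82 ± 0.23, adjusted p = 0.0307), Atp5g3, 1 of the 3 genes of its c ring (0.72 ± 0.22, adjusted p = 0.0391), and Cyc1, the cytochrome c1 of complex III (0.55 ± 0.17, adjusted p = 0.0417), kept theirs only without cre MCD 1 or flox control 3. Over these fits their adjusted p-values ran up to 0.0942, and every log2 fold change stayed at 0.44 or above. The number of members called was 37 without flox control 3 and 17 without cre MCD 1, and 5 to 10 without any other library: 5 without flox MCD 2, 6 without cre control 2, also 6 without the library labelled cre MCD 3, 7 without cre MCD 2, cre control 1 or flox control 2, 8 without cre control 3, flox MCD 1 or flox MCD 3, and 10 without flox control 1. In the same fits 8.95% to 21.5% of all tested genes were called.

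**Figure D2:**
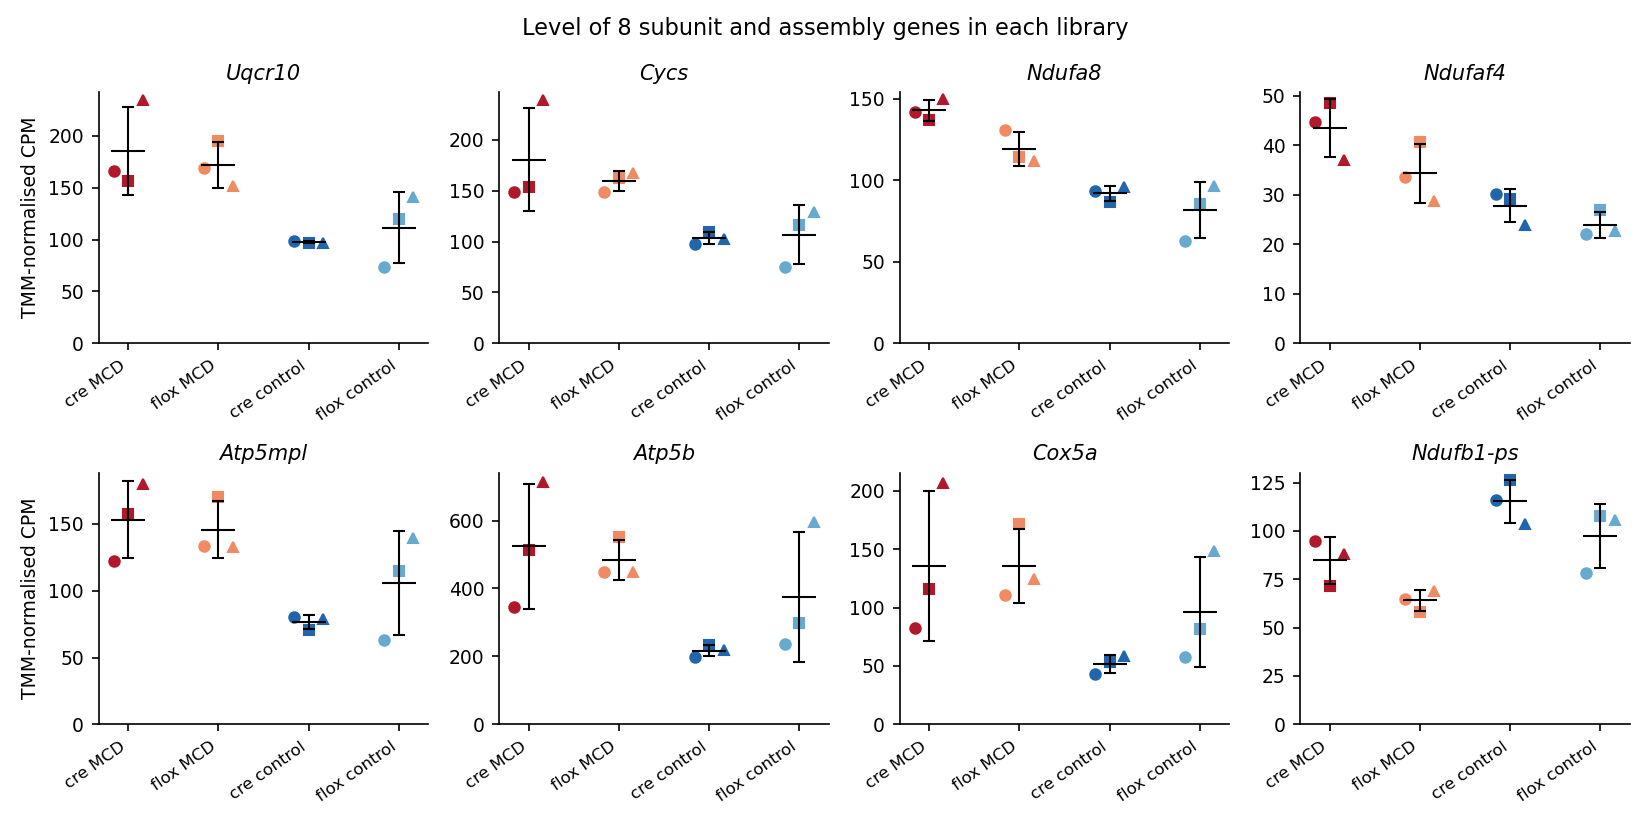
TMM-normalised CPM (y axis, from 0) of 8 members in each of the 12 libraries, by group (x axis), with circles, squares and triangles for replicates 1, 2 and 3 and black bars for mean ± SD (n = 3). Every MCD library lies above every control library for Uqcr10, Cycs and Ndufa8, and in most panels flox control 1 is the lowest and the library labelled cre MCD 3 the highest.

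To show what the start sites of these genes look like, 280 bases of the RefSeq promoters (build GRCm38.p6, 250 bases before to 30 bases after the RefSeq start, 5′ to 3′ on the gene's strand) are given for 4 of the 5 members whose calls held throughout, and for Atp5g3 and Atp5b, which carry other motifs. The windows are Cycs at chr6:50566540-50566819 (minus strand), Ndufa8 at chr2:36049309-36049588 (minus), Ndufaf4 at chr4:24897833-24898112 (plus), Uqcr10 at chr11:4704315-4704594 (minus), Atp5g3 at chr2:73911297-73911576 (minus) and Atp5b at chr10:128083057-128083336 (plus). Capitals mark matches, on either strand, to GCGCANGCG, the core of the NRF1 motif (NRF1 being a factor known to drive many respiratory chain genes), to TCAAGGTCA, bound by the ERR nuclear receptors (Atp5g3, the first run of capitals), and to AANATGGCG, bound by YY1 (Atp5b).
Cycs: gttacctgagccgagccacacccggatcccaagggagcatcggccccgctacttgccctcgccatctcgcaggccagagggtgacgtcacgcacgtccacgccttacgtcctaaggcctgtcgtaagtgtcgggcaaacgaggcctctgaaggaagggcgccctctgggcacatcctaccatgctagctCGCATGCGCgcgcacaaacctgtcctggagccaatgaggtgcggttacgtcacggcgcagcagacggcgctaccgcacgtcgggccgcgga
Ndufa8: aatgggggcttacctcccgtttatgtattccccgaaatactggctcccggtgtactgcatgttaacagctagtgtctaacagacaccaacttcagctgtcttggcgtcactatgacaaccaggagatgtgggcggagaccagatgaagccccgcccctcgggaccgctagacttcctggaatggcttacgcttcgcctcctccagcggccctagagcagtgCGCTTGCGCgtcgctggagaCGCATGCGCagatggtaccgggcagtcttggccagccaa
Ndufaf4: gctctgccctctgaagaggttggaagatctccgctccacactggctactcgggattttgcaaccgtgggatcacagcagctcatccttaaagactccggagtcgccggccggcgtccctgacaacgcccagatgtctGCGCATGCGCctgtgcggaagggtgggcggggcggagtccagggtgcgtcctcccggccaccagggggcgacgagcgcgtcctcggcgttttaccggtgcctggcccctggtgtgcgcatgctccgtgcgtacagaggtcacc
Uqcr10: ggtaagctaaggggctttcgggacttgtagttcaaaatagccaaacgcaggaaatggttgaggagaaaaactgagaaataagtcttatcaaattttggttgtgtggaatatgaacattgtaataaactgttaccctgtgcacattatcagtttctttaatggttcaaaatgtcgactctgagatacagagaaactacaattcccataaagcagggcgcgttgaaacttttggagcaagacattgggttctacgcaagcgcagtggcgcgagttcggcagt
Atp5g3: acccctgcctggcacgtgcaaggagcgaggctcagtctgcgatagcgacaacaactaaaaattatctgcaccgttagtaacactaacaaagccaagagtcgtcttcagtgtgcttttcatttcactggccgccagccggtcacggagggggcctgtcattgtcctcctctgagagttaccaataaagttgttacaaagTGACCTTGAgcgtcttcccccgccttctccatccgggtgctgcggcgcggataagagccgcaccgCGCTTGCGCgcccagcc
Atp5b: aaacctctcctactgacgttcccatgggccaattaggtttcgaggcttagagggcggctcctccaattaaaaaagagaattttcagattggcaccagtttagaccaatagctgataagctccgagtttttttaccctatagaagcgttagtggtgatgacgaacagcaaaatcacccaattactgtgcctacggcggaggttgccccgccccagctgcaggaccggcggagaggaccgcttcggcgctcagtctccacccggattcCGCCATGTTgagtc

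Promoters were found by symbol for 77 members and for 16802 protein coding symbols, and were searched over the whole RefSeq window of 300 bases, which runs to 50 bases after the start. GCGCANGCG was present in 23 of the 77 members (29.9%) and in 9.98% of all promoters. AANATGGCG was present in 14.3% of the members and 3.77% of all promoters, the ETS motif CCGGAAG in 24.7% and 13.2%, and TCAAGGTCA in 2 members (2.6%) and 0.387%. GGGCGG, bound by SP1, was present in 46.8% of the members and 50.7% of all promoters. The palindrome of the NRF1 motif lets both strands match at the same place, as in Ndufaf4. The 23 members with GCGCANGCG had a median log2 fold change for the diet of 0.58 in cre livers and 0.04 in flox livers, and the 52 tested members whose promoter lacked it had 0.38 in cre livers and -0.02 in flox livers. The other motifs did not all go the same way in cre livers. The median was 0.33 with CCGGAAG and 0.47 without it, and 0.42 with AANATGGCG and 0.45 without it. It was 0.46 with GGGCGG and 0.38 without it, and 0.90 in the 2 members with TCAAGGTCA and 0.42 without it. These are descriptions of letters in a window and of medians, with no test. Uqcr10, with the smallest p of all members, held none of the 5 motifs in its window.

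Within cre livers, the MCD diet was followed by higher levels of 8 of the 92 tested members, and none fell (8.7% of the members, against 6.77% of all tested genes called in either direction, 3.73% higher and 3.04% lower; at an unadjusted p under 0.05 there were 34 members, 37% against 24.9%). They were 3 assembly factors of complex I, Ndufaf2, Ndufaf5 and Ndufaf7, with Uqcr10 of complex III, Cox5a and Cox7a2 of complex IV and Atp5b and Atp5mpl of complex V. The median log2 fold change was 0.39 over the members and -0.01 over all tested genes, and 73 of 92 were positive. Cytosolic ribosomal proteins had a median of 0.42, with 81 of 89 positive. In 52 members all 3 cre MCD libraries were above all 3 cre control libraries, 56.5% of the members against 16.4% of all tested genes, and in Ndufb1-ps and Atp5e they were all below (2.17% against 14.7%).

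Atp5b had 344, 514 and 713 CPM in cre MCD livers, against 199.6, 232 and 218 CPM in cre control livers. The groups did not overlap, the library labelled cre MCD 3 was the highest, and the log2 fold change was 1.27 ± 0.33 (edgeR, adjusted p = 0.0358). Cox5a, a matrix-side subunit of complex IV, had 82.9, 116 and 207 CPM in cre MCD livers, against 43.0, 53.6 and 58.4 CPM in cre control livers. Again no library overlapped and the same library was highest, with a log2 fold change of 1.39 ± 0.37 (adjusted p = 0.039). Cox7a2 had 137, 184 and 267 CPM in cre MCD livers, against 76.0, 85.7 and 92.1 CPM in cre control livers, a difference of 1.21 ± 0.32 on the log2 scale (adjusted p = 0.0369). For Atp5mpl and Uqcr10, given above, the values were 1.0 ± 0.26 (adjusted p = 0.036) and 0.93 ± 0.24 (adjusted p = 0.0365).

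Over the 8 assembly factors of complex I the median log2 fold change was 0.64, and 0.54 to 0.71 without any 1 library. Ndufaf7, a methyltransferase, had 10.7, 8.01 and 9.62 CPM in cre MCD livers, against 5.59, 3.88 and 3.94 CPM in cre control livers (log2 fold change 1.08 ± 0.28, adjusted p = 0.0365). Ndufaf2, which acts late in assembly, had 10.7, 12.3 and 12.5 CPM in cre MCD livers, against 6.94, 4.96 and 7.02 CPM in cre control livers (0.91 ± 0.24, adjusted p = 0.0396). It overlaps the coding row Smim15 on the opposite strand, which holds more counts than Ndufaf2 itself, and their reads cannot be told apart. Ndufaf5, which hydroxylates the core subunit Ndufs7, had 5.08, 5.17 and 7.01 CPM in cre MCD livers, against 2.51, 3.61 and 2.80 CPM in cre control livers (0.95 ± 0.26, adjusted p = 0.0412). The libraries of these groups were apart for each of them, and for 6 of the 8 assembly factors, against 16.4% of all tested genes. Ndufaf3, a factor of the early steps, was the exception in sign, at -0.42 and not called (adjusted p = 0.398).

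By complex, the median log2 fold change in cre livers was 0.45 over the 7 core subunits of complex I and 0.23 over its 30 accessory subunits, 0.61 over the 4 subunits of complex II, 0.42 over the 9 of complex III, 0.22 over the 16 tested of complex IV and 0.50 over the 17 tested of complex V. Cycs was at 0.81 (adjusted p = 0.0555). Leaving out the library labelled cre MCD 3 gave a median of 0.24 for complex II, 0.30 for the core subunits of complex I and 0.13 for its accessory subunits, and without cre MCD 2 it was 0.38 for the accessory subunits and 0.34 for complex IV. The members with all cre MCD libraries above all cre control libraries were 5 of 7 core subunits, 13 of 30 accessory subunits, 1 of 4 in complex II, 5 of 9 in complex III, 8 of 16 in complex IV and 13 of 17 in complex V. Of all tested genes, 16.4% stood apart in this way. Within a complex the estimates ranged widely, and differences between its members were not tested. Within complex V, Atp5a1, the alpha subunit paired with Atp5b, was at 0.93 (adjusted p = 0.0738) and Atp5pb of the stalk at 1.11 (adjusted p = 0.0744), while Atp5h was at 0.00 and Atp5e at -0.35 (adjusted p = 0.281). In complex IV, Cox5a and Cox7a2 passed and Ndufa4 was at 1.03 (adjusted p = 0.0904), but Cox4i1, the common form of the largest nuclear subunit of complex IV, was at 0.27 (adjusted p = 0.51), Cox6c at 0.09 and Cox7c at 0.06. Sdha and Sdhb of complex II were at 0.62 and 0.07 (adjusted p = 0.254 and 0.895). In complex I, Ndufs4 was at 1.15 (adjusted p = 0.0527), and the core subunits Ndufv1, which binds NADH, and Ndufs1 were at 0.59 and 0.27. Uqcrc1 and Uqcrfs1, the Rieske iron-sulfur protein of complex III, were at 0.58 and 0.13.

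**Figure D3:**
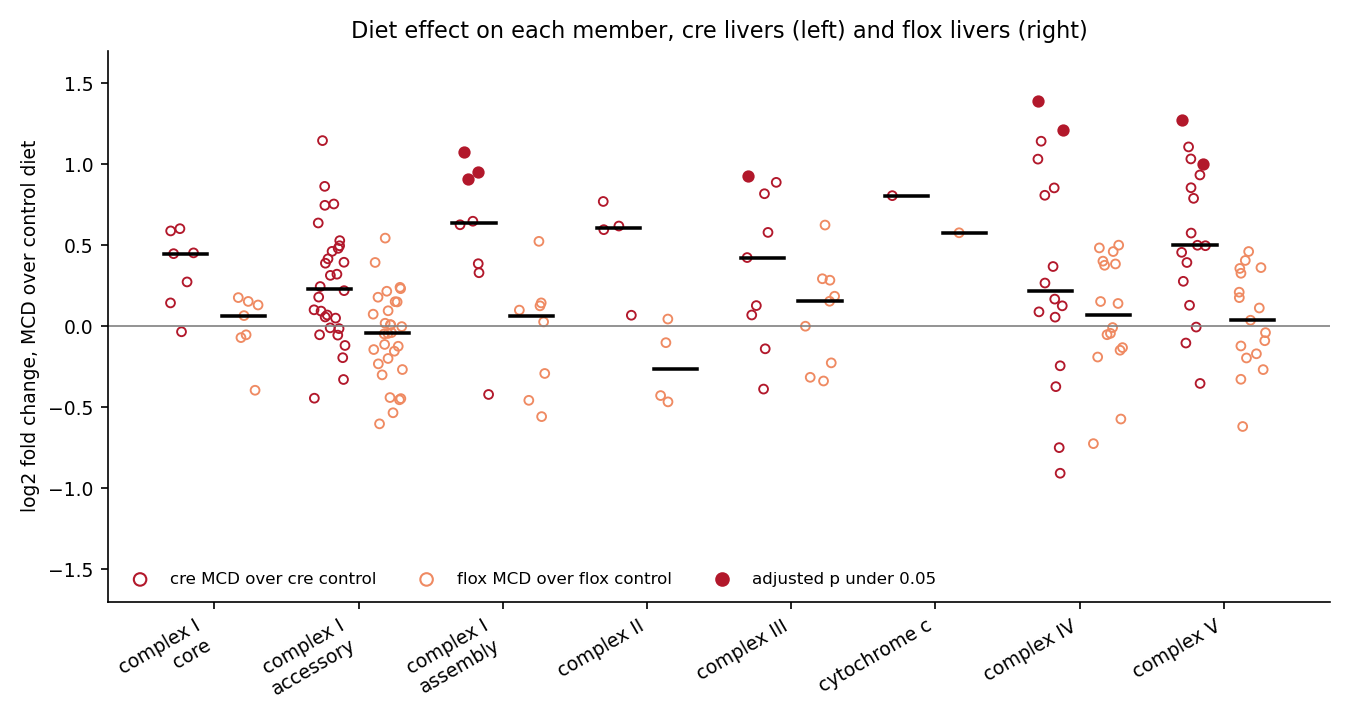
Log2 fold change of MCD over control diet (y axis) for each tested member by complex (x axis), cre livers on the left of each pair and flox livers on the right, with filled symbols for adjusted p under 0.05 and black bars at the median. In cre livers the medians run from 0.22 to 0.81 and 8 members are filled, and in flox livers they run from -0.26 to 0.58 and none is filled.

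None of these 8 calls held in every fit that left out 1 library. No member was called without the library labelled cre MCD 3, and none without cre MCD 2, cre control 1, cre control 2, cre control 3 or flox MCD 1 (the flox libraries share the estimate of the spread). A single member, counted as 1, was called without flox MCD 3, 6 without flox MCD 2 and 7 without flox control 2, and 15, 22 and 25 without cre MCD 1, flox control 1 and flox control 3. All tested genes lost calls too, with 3.18% called without the library labelled cre MCD 3 and 1.86% to 11.3% over all 12 fits. The 8 log2 fold changes stayed between 0.73 and 1.65 over these fits, with adjusted p of up to 0.163, and the median of the members stayed between 0.28, without the library labelled cre MCD 3, and 0.49. Without both that library and flox control 3, 7 members were called (7.61%, against 6.1% of all tested genes). DESeq2 called 22 members (23.9%, against 13.3% of all genes) and limma voom 8 (8.7%, against 6.42%).

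In flox livers no member passed the test for the diet (edgeR, against 5.27% of all tested genes, 2.64% higher and 2.63% lower), 11 had an unadjusted p under 0.05 (12% of the members, against 18.8% of all tested genes), DESeq2 called 2 and limma voom none. The median log2 fold change was 0.00 and 47 of 92 were positive. The smallest p-values belonged to Ndufb1-ps (-0.60, adjusted p = 0.0862), Ndufa8 (0.54, adjusted p = 0.112), Ndufaf4 (0.52, adjusted p = 0.138), Uqcr10 (0.62, adjusted p = 0.166) and Atp5k, a membrane subunit of complex V at -0.62 (adjusted p = 0.192). Ndufa8, Ndufaf4, Uqcr10 and Cycs were the 4 members with all flox MCD libraries above all flox control libraries (4.35%, against 13.8% of all tested genes). Ndufa3, Ndufa13 and Ndufb1-ps, all of complex I, were the 3 with all of them below (3.26%, against 10.3%). The flox control livers spread widely, and the median of the members moved to 0.25 without flox control 3 and to -0.21 without flox control 1. Without flox control 3 the 1 member called was Ndufa8, and without flox control 1 it was Ndufb1-ps. On log2(FPKM + 1) limma called 4 members, all higher (4.44%, against 20.3% of all genes in that fit), with a median of 0.58 beside 0.41 for all genes.

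The difference between the diet effects of cre and flox livers was tested directly, and no member passed (edgeR interaction term, against 0.00605% of all tested genes). The count at an unadjusted p under 0.05 was 5 (5.43%, against 8.98% of all tested genes), and DESeq2 and limma voom called none. Each of the 12 fits without 1 library also called none. The 5 smallest p-values belonged to 4 assembly factors of complex I and a subunit of complex II. Ndufaf1, of the complex that assembles the membrane arm, had a difference of 0.79 ± 0.28 (log2, adjusted p = 0.494), and Sdha, the flavoprotein that oxidises succinate, had 1.05 ± 0.45 (adjusted p = 0.536). Ndufaf2, Ndufaf5 and Ndufaf7 lay between 0.78 and 0.93 (adjusted p = 0.524 to 0.536). The median of the members was 0.39 and 81 of 92 were positive, with a median of 0.17 without flox control 3 and 0.61 without flox control 1. Cytosolic ribosomal proteins, outside the organelle, had a median of 0.31, with 80 of 89 positive and none called. The calls in cre livers and their absence in flox livers are thus not shown to differ.

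Between cre and flox livers on the MCD diet no member passed either (edgeR, against 0.0121% of all tested genes), with 7 at an unadjusted p under 0.05 (7.61%, against 8.33% of all tested genes) and none called by DESeq2 or limma voom. The cre values were higher in sign for 86 of 92 members, with a median of 0.22 beside -0.01 for all tested genes. The lean was not particular to the members: 87 of 89 cytosolic ribosomal proteins were higher in sign, with a median of 0.30 and none called. Markers of other cells leaned by genotype too, with none called by edgeR: all 8 hepatocyte markers were higher in sign in cre MCD livers (median 0.18, 2 at an unadjusted p under 0.05) and their sums did not overlap, 85686 to 95578 CPM in cre MCD livers and 44716 to 64921 CPM in flox MCD livers. The median was -0.73 over the 8 stellate markers (7 lower in sign). Their sums did not overlap, at 222 to 335 CPM in cre MCD livers and 344 to 415 CPM in flox MCD livers. For 8 markers of recruited macrophages the median was -1.27 (5 lower in sign). The macrophage sums overlapped, with means of 396 CPM in cre MCD livers and 393 CPM in flox MCD livers. The part of these cells in the members' lean was not tested. In 24 members all cre MCD libraries were above all flox MCD libraries, 26.1% against 8.13% of all tested genes, and in none were they all below, against 9.42%. Of the 24, 16 belonged to complex I, which holds 45 of the 92 tested members, and that share was not tested. Ndufaf1 had 20.3, 20.1 and 20.8 CPM in cre MCD livers, against 13.6, 11.6 and 12.8 CPM in flox MCD livers. Its libraries were close within each group and apart between them (0.68 ± 0.20, adjusted p = 0.321). Ndufb4, an accessory subunit, had 203, 161 and 179.8 CPM in cre MCD livers, against 123, 106 and 133 CPM in flox MCD livers (0.59 ± 0.20, adjusted p = 0.407). The core subunits Ndufs8 and Ndufv2 and the factor Ndufaf7 came next, at 0.45, 0.54 and 0.60 (adjusted p = 0.548 to 0.583). The median was 0.12 without the library labelled cre MCD 3, whose Lpcat3 level lay among those of the flox libraries, and was 0.31 without cre MCD 1. On log2(FPKM + 1) it was 0.04, beside -0.11 for all genes.

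On the control diet the same genotypes gave no called member (edgeR, against 0.0424% of all tested genes, 0.0182% higher and 0.0242% lower), 4 at an unadjusted p under 0.05 (4.35%, against 7.2% of all tested genes), and none by DESeq2 or limma voom. Here the signs leaned the other way, with 29 of 92 members higher in cre control livers and a median of -0.13, which became 0.06 without flox control 3 and -0.34 without flox control 1. The smallest p-values belonged to Cox5a (-0.89, adjusted p = 0.668), Atp5b (-0.79, adjusted p = 0.671), Ndufa4 (-0.85, adjusted p = 0.675), Ndufaf2 (-0.54, adjusted p = 0.688) and Atp5g3 (-0.65, adjusted p = 0.693). Atp5b was the member with all cre control libraries below all flox control libraries (1.09%, against 5.01% of all tested genes). Cox7c, with 420.4, 423 and 392 CPM in cre control livers and 255, 387 and 373 CPM in flox control livers, was the member with all of them above (1.09%, against 5.76%). With 3 against 3 livers an exact permutation test of a single gene cannot give a p below 0.1.

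The members' levels followed the library as much as the group. Relative to each member's mean over the 12 libraries, the median member stood 0.42 higher on the log2 scale in the library labelled cre MCD 3, 0.12 and 0.13 higher in cre MCD 1 and 2, between -0.02 and 0.02 in the flox MCD libraries, at -0.17, -0.11 and -0.19 in the cre control libraries, and at -0.51, 0.01 and 0.31 in flox control 1, 2 and 3. The median of all tested genes stayed between -0.03 and 0.05 in every library. Flox control 1 held the lowest value of 12 in 68 of the 92 members, and the library labelled cre MCD 3 held the highest in 44. The within-group coefficient of variation of the median member was 17.7% in cre MCD, 9.83% in flox MCD, 9.22% in cre control and 30.5% in flox control, against 26.9%, 18.6%, 22.1% and 32.6% for the median tested gene. Flox control 1 had the highest share of the ribosomal RNA row, and flox control 3 and the library labelled cre MCD 3 had the lowest shares. The part of that share in the members' levels was not tested. With the ribosomal RNA and mitochondrial genome rows left out before scaling, 8 members were called in cre livers (8.7%, against 6.58% of all genes). Over both genotypes 12 were called (13%, against 14.4% of all genes).

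**Figure D4:**
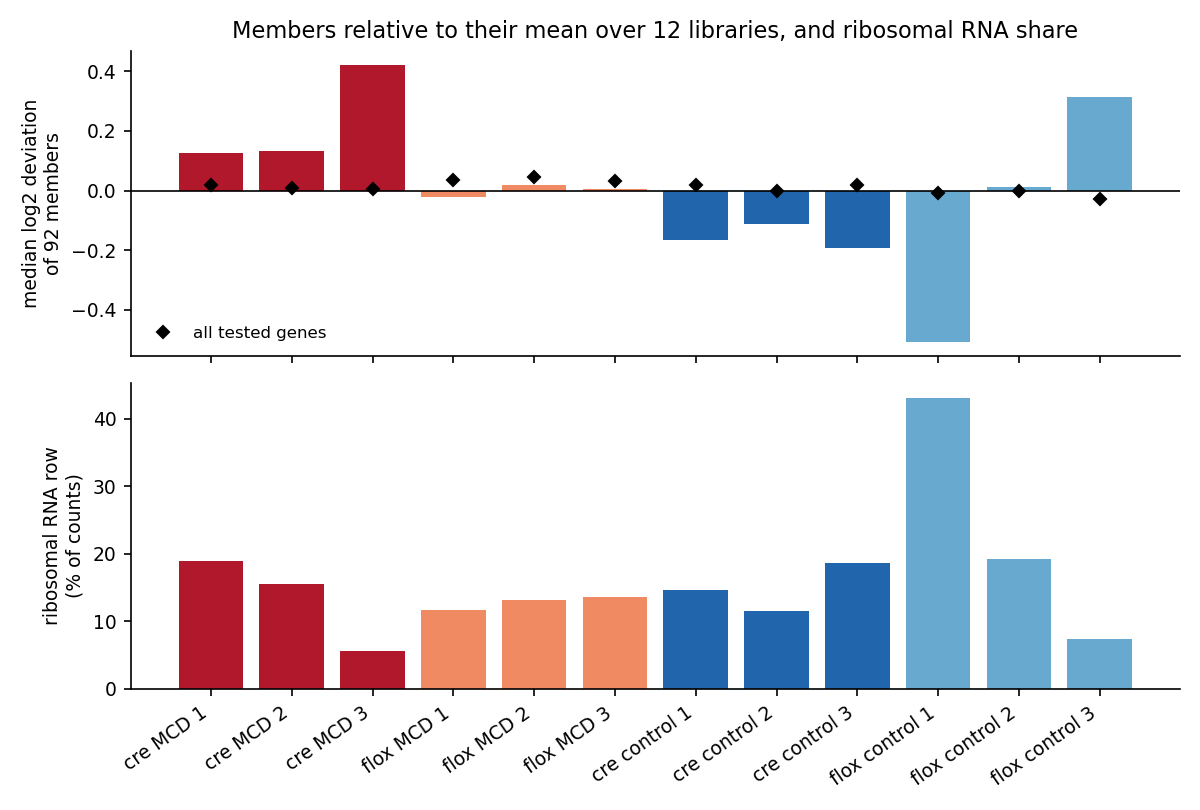
Upper panel, median over the 92 tested members of the log2 deviation from each member's mean over the 12 libraries (bars), with the same median over all tested genes (diamonds); lower panel, share of counts on the ribosomal RNA row in percent, both by library (x axis). The tallest share, 43.0% in flox control 1, stands under the lowest bar, -0.51, and the shortest, 5.6% and 7.33%, under the highest bars.

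Summed over the 98 rows, the nuclear members held 14624, 14279 and 18032 CPM in cre MCD livers, 13245, 13812 and 13208 CPM in flox MCD livers, 12440, 12625 and 12032 CPM in cre control livers and 9374, 13839 and 16873 CPM in flox control livers. In cre livers each MCD library was above each control library, and in flox livers the control libraries enclosed the MCD libraries. The 13 mitochondrially encoded subunits, which complete complexes I, III, IV and V, went the other way in cre livers: 11 of 13 fell (edgeR, median log2 fold change -1.79, against 3.04% of all tested genes lower). In flox livers none passed (median -0.04, none at an unadjusted p under 0.05, against 2.63% of all tested genes lower). The difference between these effects was not shown. The interaction (median -1.57) called 0 of 13 by edgeR and limma voom and 2 by DESeq2, which called 0.612% of all genes. At an unadjusted p under 0.05 there were 10, against 8.98% of all tested genes. On the control diet all 13 were higher in sign in cre than in flox livers (median 1.32). At an unadjusted p under 0.05 there were 12 of them, against 7.2% of all tested genes. EdgeR called none, and DESeq2 called 4, against 0.36% of all genes. That count of 11 became 1 without cre MCD 2, 2 without cre control 2, 4 without cre control 1, also 4 without the library labelled cre MCD 3, and 7 without flox MCD 3. The ratio of mitochondrially encoded to nuclear sums was 7.34, 4.63 and 4.19 in cre MCD livers, 6.00, 7.91 and 7.26 in flox MCD livers, 22.1, 29.0 and 13.9 in cre control livers and 9.77, 11.5 and 5.89 in flox control livers. All 3 cre control libraries were above the other 9.

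**Figure D5:**
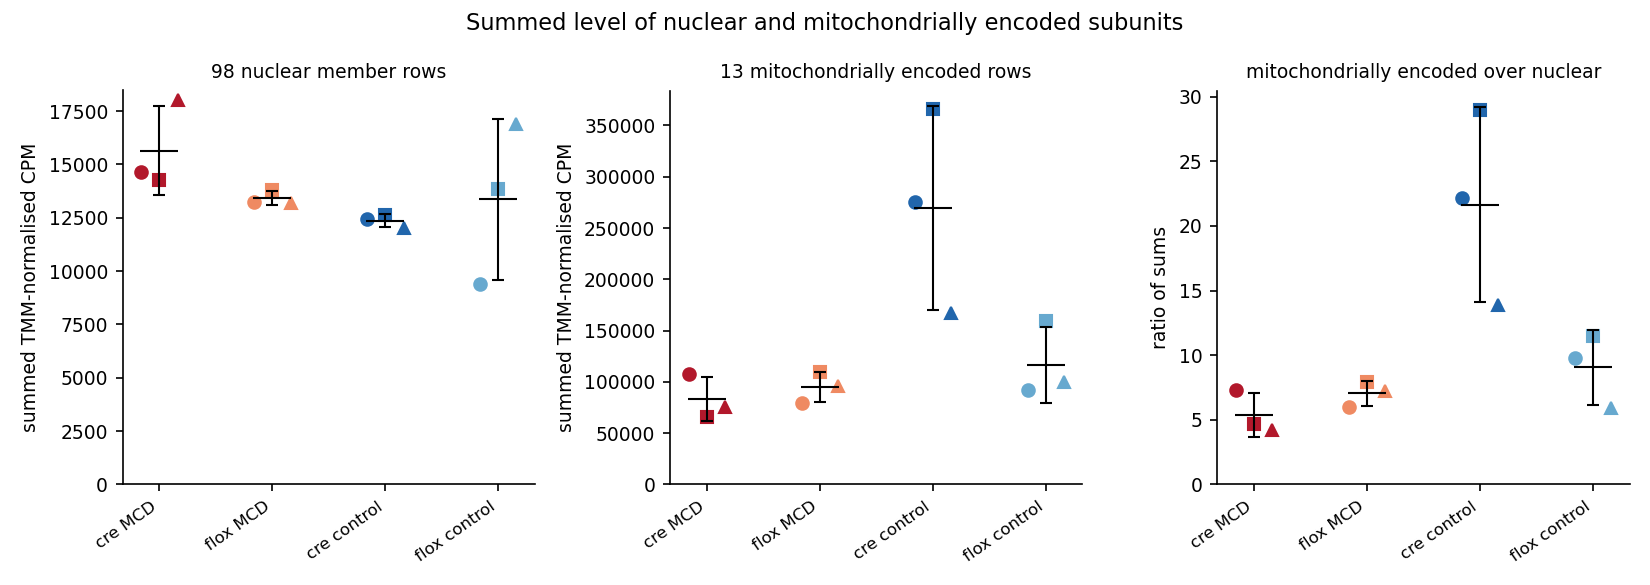
Summed TMM-normalised CPM of the 98 nuclear rows (left) and the 13 mitochondrially encoded rows (middle), and the ratio of the second sum to the first (right), by group, with circles, squares and triangles for replicates 1, 2 and 3 and black bars for mean ± SD (n = 3). The cre control libraries have ratios of 13.9 to 29.0, and the other libraries lie between 4.19 and 11.5.

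The c ring of the ATP synthase is built from a protein that Atp5g1, Atp5g2 and Atp5g3 all encode, with the same mature sequence, so their shares show which gene supplies the transcript. Atp5g3 gave 66.7%, 72.6% and 71.6% of their summed FPKM in cre MCD livers, 72.1%, 78.4% and 73.1% in flox MCD livers, 57.4%, 56.6% and 62.7% in cre control livers and 68.8%, 69.5% and 71.1% in flox control livers. The 3 cre control livers were the lowest of the 12. Atp5g1 filled most of the gap, with 29.9% to 35.9% in cre control livers and 14.96% to 25.9% in the other 9. Between cre control and flox control livers neither gene passed, at -0.65 for Atp5g3 (adjusted p = 0.693) and -0.11 for Atp5g1 (adjusted p = 0.958), and the shares themselves were not tested.

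Genes around the chain were counted from lists for the diet in cre livers, where 3.73% of all tested genes were higher and 3.04% lower. Of 14 enzymes of the citric acid cycle, which supplies NADH and succinate to the chain, 3 rose (median log2 fold change 0.48). Mdh2, the mitochondrial malate dehydrogenase, had 251 ± 38.5 CPM in cre MCD livers, against 82.9 ± 9.21 CPM in cre control livers (SD, n = 3 each; log2 fold change 1.60 ± 0.29, edgeR adjusted p = 0.00646), and kept its call without any 1 library. Idh2 and Cs, the citrate synthase, also rose, by 1.31 and 0.66 (adjusted p = 0.0196 and 0.046). Of the 12 fits without 1 library, 4 lost the call of Idh2 and 9 that of Cs (edgeR adjusted p of up to 0.0791 and 0.166). In coenzyme Q synthesis 1 of 10 genes rose (median 0.42). It was Coq7, the hydroxylase of a late step, at 27.3 ± 3.96 CPM in cre MCD livers and 8.11 ± 1.92 CPM in cre control livers (1.75 ± 0.31, adjusted p = 0.0061), and its call too held without any 1 library. Over both genotypes Coq7 rose by 1.62, while Coq8a, an atypical kinase of the same pathway, fell by 0.98 on the log2 scale (adjusted p = 0.000344 and 0.000295).

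Among assembly factors outside the Ndufaf rows 3 of 38 rose in cre livers (median 0.21), the complex IV factors Coa3, Coa7 and Cox11 at 1.12, 0.91 and 1.37 (edgeR adjusted p = 0.0209, 0.0157 and 0.03). In the import machinery 1 of 24 rose (median 0.51), the outer membrane translocase subunit Tomm5 at 1.64 (adjusted p = 0.0178). Of 78 mitochondrial ribosomal proteins, which make the mitochondrially encoded subunits, 13 rose (median 0.49), led by Mrpl54 at 0.93 and Mrpl50 at 1.0 (adjusted p = 0.0117 and 0.0131). Of 8 other enzymes that feed electrons to ubiquinone, 1 fell, the proline dehydrogenase Prodh at -0.91 (adjusted p = 0.0204). None of the 12 biogenesis regulators was called by edgeR, and 2 had an unadjusted p under 0.05 (median 0.12). The cytosolic ribosomal proteins, outside the organelle, had a median of 0.42 with 4 of 89 higher. Without 1 library these counts ran from 0 to 23 for the mitochondrial ribosomal proteins, 0 to 18 for the cytosolic ones, 0 to 10 for import, 0 to 6 for the assembly factors, 1 to 6 for the citric acid cycle and 1 to 4 for coenzyme Q. The call of Prodh was lost without cre MCD 2, the library labelled cre MCD 3, cre control 1 or cre control 2 (adjusted p of up to 0.0856). In flox livers, where 2.64% of all tested genes were higher and 2.63% lower, the medians of these lists lay between -0.07 and 0.27. The calls there were 2 higher of the citric acid cycle, 1 higher and 1 lower of coenzyme Q synthesis, 1 higher of the assembly factors, 1 higher of the mitochondrial ribosomal proteins and 1 lower of the other electron donors, and whether cre and flox differed was not read from these counts.

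Markers of other cells moved with the diet as well. For recruited or lipid-associated macrophages, the sum of 8 markers came to 225 to 521 CPM in MCD livers and 74.6 to 127 CPM in control livers, and all 8 were called higher over both genotypes. The 8 stellate markers summed to 222 to 415 CPM in MCD livers and 156 to 203 CPM in control livers, with 5 called higher, and the 5 cholangiocyte markers to 66.0 to 136 CPM and 28.0 to 70.1 CPM, with 2 called higher. No marker of these 3 lists was at 0 in all libraries. The cholangiocyte and macrophage lists share a marker, so their sums and calls are not independent. Of 4 neutrophil markers 2 were called higher over both genotypes, also without any 1 library. Of 5 resident macrophage markers 1 was called higher and 2 lower, and these counts moved when 1 library was left out. In this comparison 8.03% of all tested genes were called higher and 6.92% lower. Of the 8 hepatocyte markers 1 was called lower over both genotypes and none higher. For the diet their median was 0.21 in cre livers (5 of 8 positive, none called) and -0.48 in flox livers (8 of 8 negative, 1 called), and the interaction had a median of 0.55 (7 of 8 positive, none called by edgeR, 1 at an unadjusted p under 0.05). The part of these cells in the members' levels was not tested.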

How the data were processed

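Polyadenylated liver RNA of 12 mice was sequenced, 3 libraries in each of 4 groups, grouped by the genotype and diet labels. Per the submitters' processing notes, cutadapt, FastQC, HISAT2, StringTie and edgeR were used with the mm10 genome, and versions and the strand setting are not given in the sources used here. The deposited gene table holds estimated counts made by the authors: each gene's value is the sum of its transcripts, and 92.3% to 95.2% of transcript counts per library equal FPKM times length, rescaled and rounded up. The authors' expression tables hold values that were read as linear FPKM from their relation to the counts, since the headers name no unit. How reads shared with processed pseudogenes, such as copies of Cycs, were assigned is not given either.

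Counts were filtered with filterByExpr, scaled by TMM and fitted in edgeR 4.0.16 (quasi-likelihood test, R 4.3.3) with 1 mean per group over all 12 libraries, and p-values were adjusted by Benjamini and Hochberg over 16523 genes, with calls at 0.05. The contrasts were the diet within each genotype, the genotype within each diet, their interaction and the diet over both genotypes, 6 in all. A difference between the cre and flox diet effects was read only from the interaction. DESeq2 1.42.0, limma 3.58.1 (voom, and log2 of FPKM with a pseudocount of 1 or 0.1), other filters and scalings, a replicate block and fits without each library were tried. The edgeR steps were tried on simulated counts, drawn for each gene on its own. That simulation held no shift shared by many genes of a library, so it cannot speak to the library shifts described above. The members and gene lists were chosen with earlier results of these data known. The named genes were the members called in a comparison (or the 5 with the smallest p where fewer were called), the member with the smallest p in each complex, fixed representatives (1 gene that the rule names is not reported here), tissue-restricted isoforms with their common paralogs, the extremes of each complex by FPKM, and up to 3 called genes of each other list. Atp5pb, Atp5h, Atp5g1, Ndufa3, Ndufa13 and Ndufaf3 were named beside some results after their values were seen. Deviations of same-numbered libraries correlated at 0.283 for cre MCD 1 with flox control 1 and at 0.345 for cre MCD 3 with flox control 3. For all other same-numbered pairs the correlation was at most 0.079, and the numbers were not used as pairs in the main fit. Promoters came from RefSeq tables of build GRCm38.p6, and gene coordinates were not converted. Reduced copies of the expression table and the correlation tables were not used.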

Additional observations from a re-analysis of the deposited data

How the results depend on the processing

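Each member called for the diet in cre livers or over both genotypes kept its sign under all alternatives run, with 362 values on the same side of the threshold and 126 past it no longer. The counts of members called moved more. Each count is followed by the share of all genes called in the same fit. For the diet in cre livers (8 members, 6.77%), 13 were called with a filter at 1 CPM in 3 libraries (10.7%), 22 by DESeq2 (13.3%), 20 with a replicate block (12.1%), 16 with only the libraries compared (7.01%) and 28 without both flox control 1 and 3 (10.1%), an alternative chosen after seeing the data. Log2 FPKM without a filter gave 0 (1.48%), and fits without 1 replicate ran from 0 to 25 (1.86% to 11.3%). For the diet in flox livers (0 members, 5.27%), DESeq2 called 2 (9.26%), leaving out flox control 3 together with the library labelled cre MCD 3 gave 7 (8.22%, against 7.61% of the members), log2 FPKM called 4 with either pseudocount (19% and 20.3%, against 4.44% of the members) and 1 without a filter (6.95%), and fits without 1 replicate gave 0 to 1. For the diet over both genotypes (12 members, 14.9%), DESeq2 called 22 (19.2%), a replicate block 21 (19.1%), leaving out that same pair 27 (17.9%), the fit without both flox control 1 and 3 19 (10.5%), log2 FPKM 41 with either pseudocount (40.4% and 41.2%, against 45.6% of the members) and 26 without a filter (14.8%), and fits without 1 replicate 5 to 37 (8.95% to 21.5%). The cause was not tested. The FPKM fits also moved the median of all genes, to between 0.33 and 0.44 over both genotypes with the filter, where the members stood at 0.63 and 0.64. The replicate block called 0 members in flox livers, in both genotype comparisons and in the interaction, as did each fit without 1 replicate for the last 3. Correlations between same-numbered libraries ran from -0.0285 to 0.345, and 2 were above 0.1, so the block rests on a shared number only. No fit with only the libraries compared was made for the interaction or for both genotypes. With 3 livers a group, small changes are hard to call. The flox control group was wide, and it enters the shared estimate of the spread in every comparison fitted over all 12 libraries. For the diet in cre livers, 22 members were called without flox control 1 and 25 without flox control 3 (9.07% and 11% of all genes). The part of that group in the calls was not tested.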
